A study of Mus musculus with 12 samples.

Results

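The genes described here are 10 markers of NK and T cells, Cd3e, Cd3g, Cd4, Cd8a, Il2rb, Ccl5, Nkg7, Klrd1, Gzma and Prf1, read through the 13 probes that the array files list under these names, of 55681 probes on the array. They were followed over livers of knockout (KO) mice lacking interleukin-18 at 12 weeks of age, wild type (WT) mice at 12 weeks, knockout mice at 6 weeks and wild type mice at 6 weeks, with 3 arrays in each group. All mice were of the BALB/c strain, all were untreated, and the RNA came from whole liver, so hepatocytes supply most of it. How the Il18 allele was disrupted and how the knockout line was kept are not given in the sources used here, and the labels give neither the sex of the mice nor the time of day of sampling. The labels call the 3 arrays of a group biological replicates.

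NK cells and T cells are a minority among liver cells. T cells signal through the T cell receptor, which reaches the surface only together with the CD3 chains, and CD4 and CD8 are the co-receptors that split T cells into helper and cytotoxic cells. NK cells carry receptors of the KLR family and share with cytotoxic T cells the granule proteins perforin and granzymes. Interleukin-18 acts through a receptor on both cell types, and is best known for driving interferon-gamma release together with interleukin-12. In whole-tissue RNA, fewer cells of a type and less RNA per cell cannot be told apart.

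A level below is the log2 processed signal of a probe after subtracting that array's 75th percentile, so that 0 is a signal as bright as the percentile, and a level says nothing about how one probe compares with another. Of the 13 probes, 11 were tested, because they rose well above background on the 3 arrays of 1 group or more. They stand for 9 of the 10 genes. Differences were tested with limma across 22128 genes, each represented by its brightest probe, and a gene was called at an adjusted p (Benjamini-Hochberg over those genes) under 0.05. The 75th percentile ran from 349 to 420 in scanner units over the 12 arrays, and 50.1% to 57.7% of spots were well above background. The 7 hepatocyte markers summed to 3719 to 4745 times the 75th percentile per array. The arrays lay on 2 slides: slide 1 held the 3 arrays of 6-week wild type and replicate 1 of 12-week wild type, and slide 2 held the other 8, with the 12-week knockout and 12-week wild type arrays in different rows. At 6 weeks, slide and genotype therefore cannot be told apart except through replicate 1 of 12-week wild type. The Il18 probe read -0.03, -0.12 and 0.04 in 12-week knockout livers, against 2.25, 2.15 and 2.49 in 12-week wild type livers. At 6 weeks it read -0.02, -0.04 and -0.37 in knockout livers, against 2.44, 2.41 and 2.35 in wild type livers, so every array matched its genotype label.

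At 12 weeks 4 of the 9 tested genes were lower in knockout livers and 0 were higher: Cd3g, Cd4, Ccl5 and Il2rb. Over all genes, 2.56% were called lower and 8.21% were called in either direction. These shares are descriptions, since the 10 genes were chosen with earlier results of these data known. Cd3g also entered the test only through its wild type groups. The log2 difference was below 0 for 9 of 9 genes, with a median of -0.35, against a median of 0.01 over all genes tested. In the same 4 genes the knockout and wild type arrays did not overlap, a pattern found in 9.87% of all genes. Cd3e and the cytotoxic genes Nkg7, Klrd1, Gzma and Prf1 overlapped between genotypes at this age and did not pass the test.

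**Figure D1:**
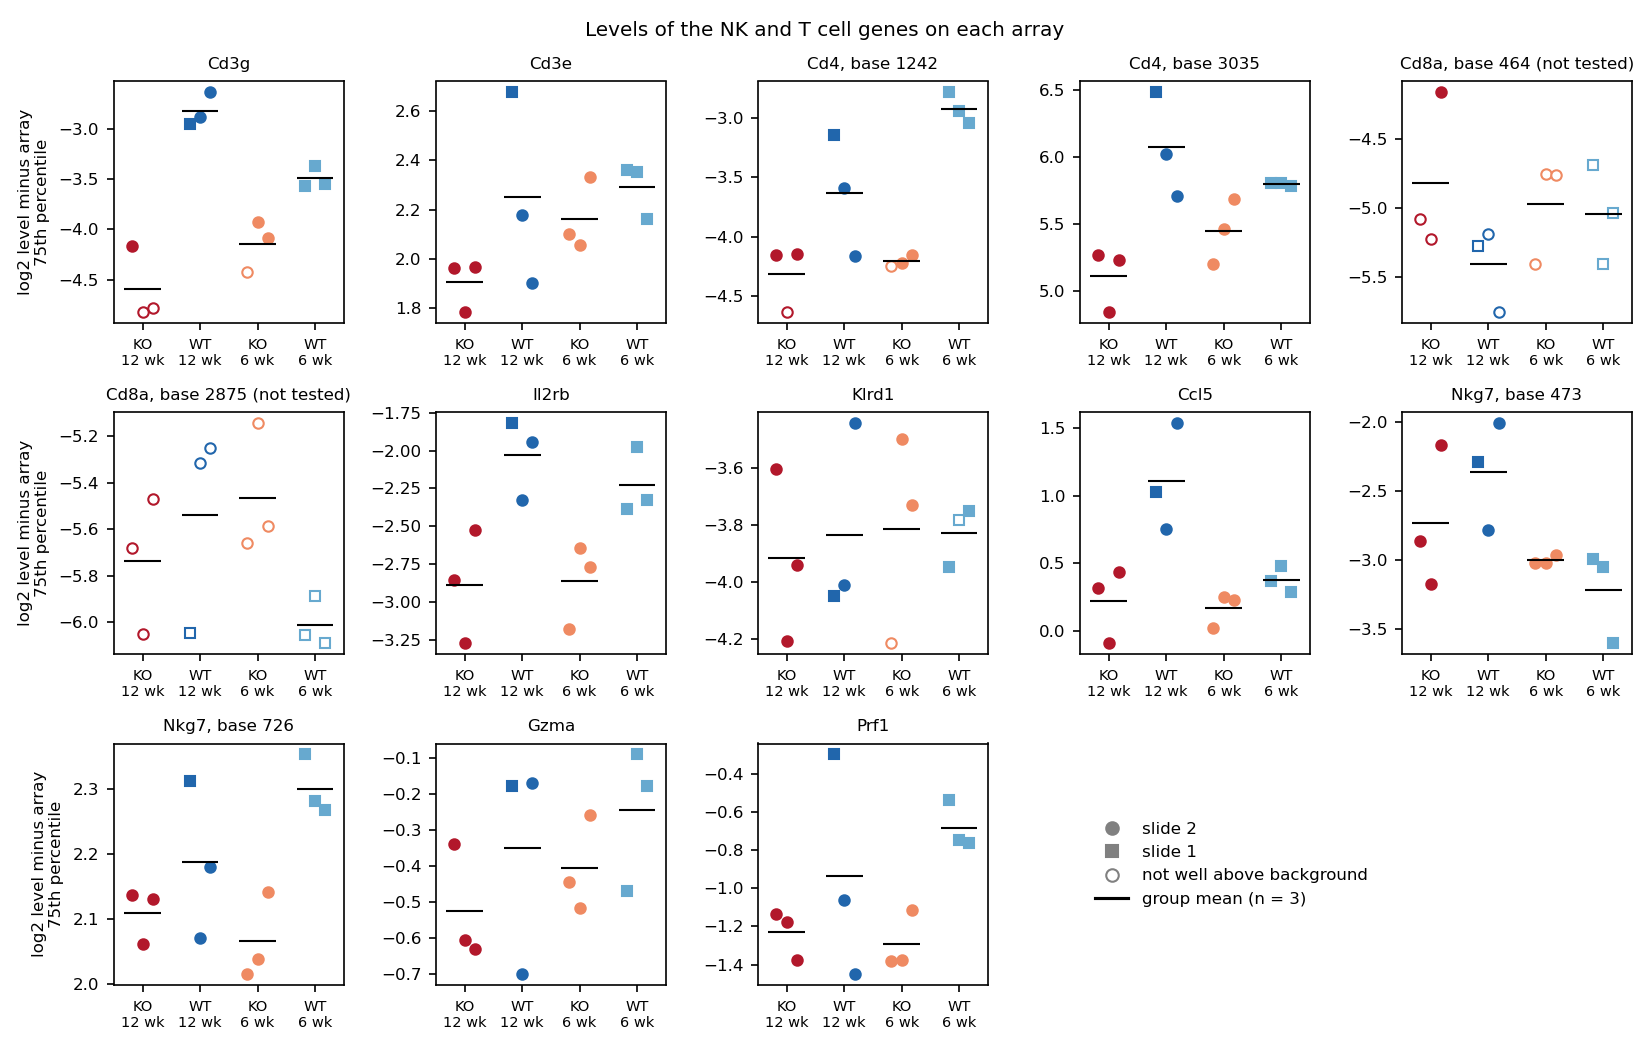
Level of each of the 13 probes on each array (vertical axis, log2 signal minus the array's 75th percentile, on its own scale in each panel) in KO and WT livers at 12 and 6 weeks. Points are arrays (circles slide 2, squares slide 1, open where not well above background) and black lines are means of 3 arrays; for Cd3g the 12-week WT arrays, at -2.95 to -2.64, lie above all others, and "base" gives where a probe starts in its transcript for genes with 2 probes.

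Cd3g, which encodes the CD3 gamma chain, had levels of -4.16, -4.82 and -4.78 in 12-week knockout livers, against -2.95, -2.88 and -2.64 in 12-week wild type livers. The groups did not overlap, and the knockout arrays were near the lower end of what the probe could register: 1 of 3 was well above background, against 3 of 3 in wild type. The difference of the measured means was -1.77 ± 0.19 (SE of the fit; adjusted p = 0.00148). Because most of the knockout arrays were near the floor, the fold is a bound: with each knockout array set at no less than the dimmest level still scored well above background there, Cd3g was at least 2.97-fold lower. Cd3g entered the test only through its wild type groups, in which it was brightest, so its genotype calls follow in part from the filter. With no filter on background it was still called at 12 weeks (adjusted p = 0.00510) but not at 6 weeks (adjusted p = 0.0652). At 6 weeks Cd3g read -4.43, -3.93 and -4.09 in knockout livers, of which 2 arrays were well above background, against -3.57, -3.37 and -3.55 in wild type livers. These groups did not overlap either, and the difference of -0.66 ± 0.19 passed the test (adjusted p = 0.0328). From low to high, Cd3g was lowest in 12-week knockout, then 6-week knockout, 6-week wild type and 12-week wild type. The step between 6-week knockout and 6-week wild type was called. The step between the knockout ages (adjusted p = 0.196) and that between the wild type ages (adjusted p = 0.0506) were not. With slide as a fixed block the Cd3g difference was -1.83 at 12 weeks (adjusted p = 0.00424) and -0.85 at 6 weeks, where it was no longer called (adjusted p = 0.231). The 6-week call held under 11 of 23 alternatives, with values from -0.85 to -0.12.

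Cd3e encodes the CD3 epsilon chain of the same complex. It read 1.96, 1.78 and 1.97 in 12-week knockout livers, against 2.68, 2.18 and 1.90 in 12-week wild type livers, where replicate 1, on slide 1, was the highest and replicate 3 lay inside the knockout range. The difference was -0.35 ± 0.17 (adjusted p = 0.241). At 6 weeks Cd3e read 2.10, 2.06 and 2.33 in knockout livers, against 2.36, 2.35 and 2.16 in wild type livers, and the groups overlapped. Both genes lie on chromosome 9 on the side of lower coordinates from Il18: the Cd3g probe is 5.61 Mb and the Cd3e probe 5.58 Mb from the Il18 probe in the files' mm9 coordinates. Since the sources used here do not give the origin of the knockout line, an inherited difference of the chromosome around Il18 and the loss of Il18 itself cannot be told apart for genes at this distance. The third chain of this cluster, Cd3d, whose gene lies between them, differed by -0.38 ± 0.18 at 12 weeks (adjusted p = 0.223) and by 0.10 ± 0.18 at 6 weeks (adjusted p = 0.727). Of these 3 neighbouring genes of 1 protein complex, Cd3g was called and the other two were not; whether their differences differ from each other was not tested.

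The probe of Cd3g (chr9:44777868-44777927, minus strand, mm9) starts at base 750 of the transcript, and its last 30 bases are shown because the largest difference among the 10 genes rests on this single probe. The promoters of Cd3g and Cd3e, taken from RefSeq on GRCm38.p6 (minus strand, chr9:44980382-44980681 and chr9:45009562-45009861), run from 250 bases before to 50 after the start of each gene. They are shown because the genes are close neighbours, of which Cd3g was called and Cd3e was not. Capitals mark an ETS core, AGGAAG, on either strand.
Cd3g probe, last 30 bases: agaactgtcaaagaaattttggtctttttt
Cd3g promoter: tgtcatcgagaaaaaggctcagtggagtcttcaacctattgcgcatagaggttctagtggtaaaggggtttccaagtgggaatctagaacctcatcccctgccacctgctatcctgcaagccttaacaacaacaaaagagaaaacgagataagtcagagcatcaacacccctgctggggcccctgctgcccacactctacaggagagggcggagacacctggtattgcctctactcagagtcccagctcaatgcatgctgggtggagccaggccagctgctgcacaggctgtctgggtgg
Cd3e promoter: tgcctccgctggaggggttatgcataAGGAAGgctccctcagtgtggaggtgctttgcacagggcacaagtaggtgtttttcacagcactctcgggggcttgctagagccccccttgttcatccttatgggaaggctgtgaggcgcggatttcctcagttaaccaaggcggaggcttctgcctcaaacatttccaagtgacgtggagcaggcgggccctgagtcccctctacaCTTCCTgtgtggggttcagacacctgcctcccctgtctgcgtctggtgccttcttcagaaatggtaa
These windows hold 0 matches for Cd3g and 2 for Cd3e, 1 on each strand. Of 32851 promoters of the same length, 35.4% hold at least 1 such match. A match is a description of letters, not a bound site.

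Cd4, the co-receptor of helper T cells, also carried by some dendritic cells, had 2 tested probes. The probe that represents it starts at base 3035, at the end of the transcript. It read 5.27, 4.84 and 5.23 in 12-week knockout livers, against 6.48, 6.02 and 5.71 in 12-week wild type livers. The groups did not overlap and the difference was -0.96 ± 0.19, or 1.94-fold lower (adjusted p = 0.0179). Without replicate 2 of the 12-week knockout, its lowest array, the difference was -0.82 (adjusted p = 0.0579), and within slide 2 it was -0.75 (adjusted p = 0.0844). At 6 weeks the same probe read 5.20, 5.47 and 5.69 in knockout livers, against 5.80, 5.81 and 5.78 in wild type livers, and the difference of -0.35 ± 0.19 was not called (adjusted p = 0.220).

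The other Cd4 probe starts at base 1242 and is spotted 10 times on each array. It read -4.15, -4.63 and -4.15 in 12-week knockout livers, against -3.15, -3.59 and -4.16 in 12-week wild type livers. Wild type replicate 3 lay among the knockout arrays, and the difference of -0.68 ± 0.22 was not called (adjusted p = 0.0949, with every probe tested on its own). At 6 weeks it read -4.24, -4.22 and -4.15 in knockout livers, against -2.79, -2.94 and -3.04 in wild type livers, and was called at -1.28 ± 0.22 (adjusted p = 0.00449). This probe was well above background on 2 of 3 knockout and 3 of 3 wild type arrays at each age. It thus entered the test only through the wild type groups, where it was brighter, and its call follows in part from the filter. With every probe on its own, 19.8% of probes were called at 6 weeks and 7.27% at 12 weeks. The probes of Cd4 thus passed at different ages: the one at base 3035 at 12 weeks and the one at base 1242 at 6 weeks. The 4 highest arrays of the base 1242 probe were the 4 arrays of slide 1, so its 6-week difference follows the slide as well as the genotype. Over the 12 arrays the levels of the probes correlated at r = 0.74, a description over arrays that share groups and slides. Levels ran from 4.84 to 6.48 for the base 3035 probe and from -4.63 to -2.79 for the base 1242 probe. Whether either probe also reads another transcript was not tested. The probe sequences are shown because they lie in different stretches of 1 transcript. Capitals mark the first match of the polyadenylation hexamer AATAAA, and a further match nearer the end of the base 3035 probe is left in lower case. In mm9 they lie on the minus strand at chr6:124817706-124817765 and chr6:124814711-124814770.
Cd4 probe at base 1242: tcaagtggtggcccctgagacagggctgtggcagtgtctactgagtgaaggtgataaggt
Cd4 probe at base 3035, last 30 bases: acagaaaAATAAAggctataaataaaatgc
The hexamer was in 3 of the 13 probes, those of Cd3e and Gzma and this one, and in 10.1% of all probes on the array.

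Cd8a, which encodes the alpha chain of the co-receptor of cytotoxic T cells, was not measured at a usable level. Its probe at base 464 was well above background on 1 of 12 arrays, a 12-week knockout, and its probe at base 2875 on 0 of 12. Their levels ran from -5.76 to -4.16 and from -6.09 to -5.15 over all arrays. No difference is given for this gene.

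**Figure D2:**
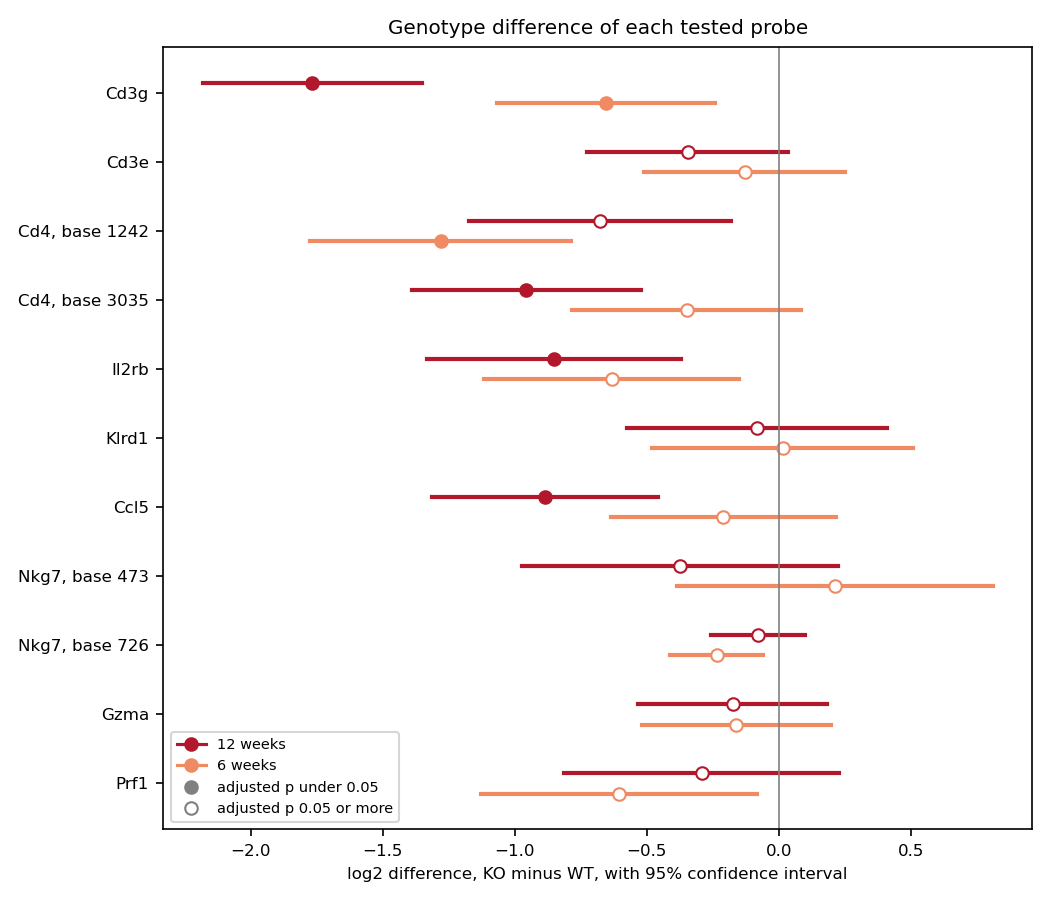
Log2 difference, KO minus WT, of each tested probe with its 95% confidence interval (horizontal axis) at 12 and 6 weeks, with every probe tested on its own and filled points at adjusted p under 0.05. Cd3g is filled at both ages, Cd4 at 12 weeks on 1 probe and at 6 weeks on the other, and Ccl5 and Il2rb at 12 weeks, while the intervals of Klrd1, Gzma and Cd3e include 0 at both ages.

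Among the receptors, Il2rb encodes the beta chain through which NK and memory T cells receive interleukin-2 and interleukin-15. It read -2.86, -3.27 and -2.53 in 12-week knockout livers, against -1.82, -2.33 and -1.95 in 12-week wild type livers. The groups did not overlap, and the difference was -0.85 ± 0.22, or 1.80-fold lower (adjusted p = 0.0401). This call was the least steady of the 4: it held under 10 of 25 alternative settings, with values from -1.03 to -0.42, and within slide 2 it was -0.75 (adjusted p = 0.149). At 6 weeks Il2rb read -3.18, -2.64 and -2.77 in knockout livers, against -2.38, -1.98 and -2.33 in wild type livers. Here too the groups did not overlap, yet the difference of -0.63 ± 0.22 was not called (adjusted p = 0.0620). The mean levels were -2.88 in 12-week knockout and -2.86 in 6-week knockout, then -2.23 in 6-week wild type and -2.03 in 12-week wild type, so the ages lay close together within each genotype.

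Klrd1 encodes CD94, the partner of the NKG2 receptors on NK cells. It was dim, at -3.60, -4.21 and -3.94 in 12-week knockout livers, against -4.05, -4.01 and -3.44 in 12-week wild type livers. The groups overlapped, with a difference of -0.08 and a 95% confidence interval from -0.57 to 0.41. At 6 weeks Klrd1 read -4.22, -3.50 and -3.73 in knockout livers, against -3.95, -3.78 and -3.75 in wild type livers, and the difference was 0.01 with an interval from -0.48 to 0.51. The 12-week interval of Klrd1 overlapped that of Il2rb (-1.33 to -0.37), and whether the 2 genes differ was not tested. The Klrd1 probe was well above background on 10 of 12 arrays.

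Ccl5 encodes a chemokine that activated T cells and NK cells store and release. It read 0.32, -0.09 and 0.44 in 12-week knockout livers, against 1.03, 0.76 and 1.54 in 12-week wild type livers. No array overlapped, and the difference was -0.89 ± 0.19, or 1.85-fold lower (adjusted p = 0.0226). Without replicate 1 or replicate 2 of the 12-week knockout it was -0.93 (adjusted p = 0.0579) or -0.73 (adjusted p = 0.0682), and within slide 2 it was -0.92 (adjusted p = 0.0931). At 6 weeks Ccl5 read 0.02, 0.25 and 0.23 in knockout livers, against 0.37, 0.48 and 0.29 in wild type livers. The groups lay apart by a narrow margin, and the difference of -0.21 ± 0.19 was not called (adjusted p = 0.449). The 12-week wild type arrays stood above all 9 others.

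No genotype difference of the granule genes Nkg7, Gzma and Prf1 was called. Nkg7, which encodes a granule membrane protein of NK and cytotoxic T cells, had 2 tested probes. The probe at base 726, which represents it, read 2.14, 2.06 and 2.13 in 12-week knockout livers, against 2.31, 2.07 and 2.18 in 12-week wild type livers, and the difference of -0.08 ± 0.08 was not called (adjusted p = 0.577). At 6 weeks it read 2.01, 2.04 and 2.14 in knockout livers, against 2.35, 2.28 and 2.27 in wild type livers. Those groups did not overlap, and the difference of -0.24 ± 0.08 was not called (adjusted p = 0.0571). On this probe every slide 1 array read higher than every slide 2 array, so the 6-week difference follows the slide as well as the genotype. The probe at base 473 read between -3.17 and -2.17 in 12-week knockout livers and between -2.78 and -2.01 in 12-week wild type livers. It read -3.02, -3.02 and -2.96 in 6-week knockout livers, against -2.99, -3.05 and -3.60 in 6-week wild type livers, a difference of 0.21 ± 0.27. The Nkg7 probes did not vary together (r = 0.04 over 12 arrays) and had opposite signs at 6 weeks, neither of them called.

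Gzma encodes granzyme A, a protease of cytotoxic granules. It read -0.34, -0.61 and -0.63 in 12-week knockout livers, against -0.18, -0.70 and -0.17 in 12-week wild type livers, with overlap and a difference of -0.17 ± 0.16 (adjusted p = 0.542). At 6 weeks it read -0.44, -0.51 and -0.26 in knockout livers, against -0.47, -0.09 and -0.18 in wild type livers, again with overlap. Prf1 encodes perforin, the pore-forming protein that lets granzymes into a target cell. Its levels were -1.13, -1.18 and -1.38 in 12-week knockout livers, against -0.30, -1.06 and -1.45 in 12-week wild type livers, where replicate 1, on slide 1, was by far the highest. At 6 weeks Prf1 read -1.38, -1.38 and -1.12 in knockout livers, against -0.54, -0.75 and -0.77 in wild type livers. These groups did not overlap, and the difference of -0.61 ± 0.23 was not called (adjusted p = 0.0894). The 4 arrays of slide 1 were the 4 highest for Prf1, and with slide as a fixed block its 6-week difference took the opposite sign, at 0.35.

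Of the 10 genes, 6 matched a promoter of the RefSeq table, Cd3e, Cd3g, Cd8a, Gzma, Nkg7 and Prf1, and Cd4, Klrd1, Il2rb and Ccl5 did not. Motifs of 4 factor families of NK and T cells were looked for on both strands: a T-box site (AGGTGTGA, in 1.28% of all 32851 promoters), a STAT site (TTCNNNGAA, in 8.30%), a RUNX core (TGTGGT, in 16.8%) and the ETS core above. Nkg7 held all of them and Prf1 the RUNX and ETS cores. Gzma held the RUNX core, Cd3e the ETS core, and Cd3g and Cd8a none. The Nkg7 promoter (chr7:43436888-43437187, plus strand, GRCm38.p6) is shown because it held every motif searched while the gene was called in no comparison. Capitals mark the matches, in order a STAT site, a RUNX core on the minus strand (read ACCACA here), an ETS core and a T-box site.
Nkg7 promoter: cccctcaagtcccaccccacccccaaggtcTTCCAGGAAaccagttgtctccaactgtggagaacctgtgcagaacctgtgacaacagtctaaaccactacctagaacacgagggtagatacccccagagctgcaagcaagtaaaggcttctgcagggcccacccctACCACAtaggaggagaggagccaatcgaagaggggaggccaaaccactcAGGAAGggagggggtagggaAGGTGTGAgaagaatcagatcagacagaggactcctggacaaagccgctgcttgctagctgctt

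At 6 weeks as a whole, 1 of the 9 tested genes was lower in knockout livers, Cd3g, and 0 were higher. Over all genes 9.35% were called lower and 21.1% in either direction, so a share of 1 in 9 is close to the background. In 6 of the 9 genes (Cd3g, Cd4, Il2rb, Ccl5, Nkg7 and Prf1) all knockout arrays lay below all wild type arrays, against 22.5% of all genes. The median difference was -0.24, against 0.02 over all genes. With slide as a fixed or a random block, 0 of the 9 were called at 6 weeks, when 2.66% and 5.55% of all genes were called in either direction, and without the block 4 had an unadjusted p under 0.05.

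Between ages within the knockout, where all arrays were on slide 2, 0 of the 9 genes were called by limma, against 6.91% of all genes, and 1 had an unadjusted p under 0.05 (Cd3g, at -0.44 ± 0.19). In 1 gene of 9, Cd3e, all 12-week knockout arrays lay below all 6-week ones, against 16.5% of all genes. Within wild type, Ccl5 was higher at 12 than at 6 weeks by 0.73 ± 0.19 (adjusted p = 0.0419), the 1 gene of 9 that was called, against 4.61% called higher and 9.03% in either direction over all genes. Within slide 1, where replicate 1 is the only 12-week array, the Ccl5 difference was 0.65 and not called (adjusted p = 0.156), and the call held under 11 of 25 alternatives. Ccl5 and Cd3g were the genes in which all 12-week wild type arrays lay above all 6-week ones (2 of 9, against 12.5% of all genes). The genotype comparisons and the age comparisons share these arrays. For the change of the genotype difference with age, Cd3g was called: the 12-week difference minus the 6-week one was -1.11 ± 0.26 (adjusted p = 0.0242). It was the 1 gene of 9 called in this test, against 10.3% of all genes in either direction and 4.76% in this direction. Cd3g was tested only through its wild type groups and its knockout arrays were near the floor, so the size of this change is uncertain. The call held under 12 of 22 alternatives. For Ccl5 the same quantity was -0.68 ± 0.27 (adjusted p = 0.146) and for Cd4, at base 3035, -0.61 ± 0.28 (adjusted p = 0.196).

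Further T cell genes were read from a list of 21, of which 16 were tested. At 12 weeks 3 were lower and 1 was higher in knockout livers, with a median of -0.38. The lower ones were Skap1, an adaptor of T cell receptor signalling (-0.99 ± 0.21, adjusted p = 0.0208), Tcf7, a transcription factor of naive and memory T cells (-0.67 ± 0.15, adjusted p = 0.0287), and Cd247, the CD3 zeta chain (-0.37 ± 0.10, adjusted p = 0.0448). Zap70, the kinase that binds the phosphorylated CD3 and zeta chains, went the other way on both of its probes. Its representing probe read 3.90, 3.76 and 3.79 in 12-week knockout livers, against 2.81, 3.22 and 2.72 in 12-week wild type livers, a rise of 0.90 ± 0.12 (adjusted p = 0.00358). At 6 weeks Zap70 was also higher, by 0.79 ± 0.12 (adjusted p = 0.00247). Tcf7 (-0.66) and Cd247 (-0.46) were lower at 6 weeks too, as was Cd5 (-0.84), an inhibitory receptor of T cells. For Cd247 every slide 1 array read higher than every slide 2 array, so its 6-week difference follows the slide as well as the genotype. At 6 weeks 2 genes of this list were higher and 3 lower, of 16 tested. At that age 21.1% of all genes were called in either direction, and 2.66% with slide as a fixed block. The 6-week calls of the lists that follow stand beside the same shares. The other higher gene of the T cell list was Cd8b1, the CD8 beta chain. At 6 weeks it was well above background on 3 of 3 knockout and 0 of 3 wild type arrays. With each wild type array set at no less than the dimmest level scored well above background there, the knockout mean was 1.34-fold higher. That value is not a lower limit. Cd8b1 entered the test only through the 6-week knockout, the group in which it was brightest. Its call thus follows in part from the filter and is given as a description.

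Of 29 NK receptor and cytotoxic effector genes outside the 10, only 11 were tested, and 7 (Klrb1f, Klrk1, Klre1, Klri2, Klra4, Cd160 and Cd226) were well above background on no array. At 12 weeks 1 was lower and 0 higher, with a median of -0.14. It was Gzmk, granzyme K, at -1.12, -1.30 and -1.09 in knockout livers, against -0.32, -0.67 and -0.93 in wild type livers (-0.53 ± 0.14, adjusted p = 0.0493). At 6 weeks Gzmk (-0.87), the inhibitory NK receptor gene Klrc1 (-0.72) and the Ly49 receptor gene Klra1 (-0.95) were lower and Gzmb, granzyme B, was higher (0.58). Klrc1 was well above background on 1 of 3 knockout and 3 of 3 wild type arrays at 6 weeks, so the size of its difference is uncertain. It entered the test only through the wild type groups, so its call follows in part from the filter. The second tested probe of Klra1 was not called (-0.16, adjusted p = 0.666 with every probe on its own). Gzmk was thus called at both ages, while Gzma, on the same chromosome, was called at neither, and whether the 2 differ was not tested. Every slide 1 array read higher for Gzmk than every slide 2 array, so its 6-week difference follows the slide as well as the genotype. With every probe tested on its own, its 12-week difference was not called (adjusted p = 0.0533).

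Genes of the cytokines that feed NK and T cells (9 of 16 tested) held 1 call at 12 weeks, Il12rb1, the shared receptor chain for interleukin-12 and interleukin-23. It read 0.25, -0.18 and -0.13 in 12-week knockout livers, against -0.61, -0.61 and -0.70 in 12-week wild type livers (0.62 ± 0.13, adjusted p = 0.0176). At 6 weeks it was lower, at -1.32, -1.34 and -1.23 in knockout livers, against -0.53, -0.72 and -0.93 in wild type livers (-0.57 ± 0.13, adjusted p = 0.0129). The genotype difference of Il12rb1 changed with age by 1.19 ± 0.18 (adjusted p = 0.00330). These values are of the brighter of 2 tested probes of Il12rb1. The other was called at neither age, with 0.34 at 12 weeks (adjusted p = 0.271) and -0.10 at 6 weeks (adjusted p = 0.714), nor for the change with age (0.44, adjusted p = 0.308). Also at 6 weeks, Il15, a growth and survival factor of NK cells, was lower (-1.06), with 2 of 3 knockout and 3 of 3 wild type arrays well above background. For Il15ra, the receptor chain that presents it, the 2 tested probes were called in opposite directions at 6 weeks, at 0.72 ± 0.17 and -1.22 ± 0.16, so no direction is given for the gene. Among 11 tested chemokine and trafficking genes, S1pr5, the sphingosine-1-phosphate receptor known for NK cell exit into blood, was the 1 called at 12 weeks. It was higher in knockout livers, at 1.40, 1.46 and 1.50, against -0.24, 0.15 and -0.54 in wild type livers (1.66 ± 0.35, adjusted p = 0.0193). At 6 weeks the 1 gene of this list called was S1pr1, the receptor for T cell exit from lymphoid organs, which was higher (0.55 ± 0.10, adjusted p = 0.00618). The S1pr5 probe lies on chromosome 9, 29.34 Mb from that of Il18.

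Of 6 lymphocyte genes that lie near Il18 on chromosome 9, all were tested, and 1 was called at 12 weeks. Il10ra, the interleukin-10 receptor alpha chain, 5.33 Mb from Il18, read -1.74, -1.84 and -1.50 in 12-week knockout livers, against -0.83, -0.90 and -0.97 in 12-week wild type livers (-0.79 ± 0.09, adjusted p = 0.00208). As for Cd3g, the chromosome around the allele and the loss of Il18 cannot be told apart here. The median of the 6 was -0.41 at 12 weeks and -0.01 at 6 weeks.

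Between ages, the same lists held few calls. In the knockout, the death ligand gene Tnfsf10 (0.82), Il12rb1 (1.28, on the brighter probe) and S1pr5 (1.42) were higher at 12 than at 6 weeks and S1pr1 was lower (-0.85). In wild type, Skap1 (0.93), Il10ra (0.57), the chemokine gene Cxcl16 (0.48) and the integrin gene Itgal (0.44, on 1 of its 3 tested probes) were higher at 12 weeks. Beside Il12rb1, the genotype difference changed with age for S1pr1 (-0.87) and Il10ra (-0.60).

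**Figure D3:**
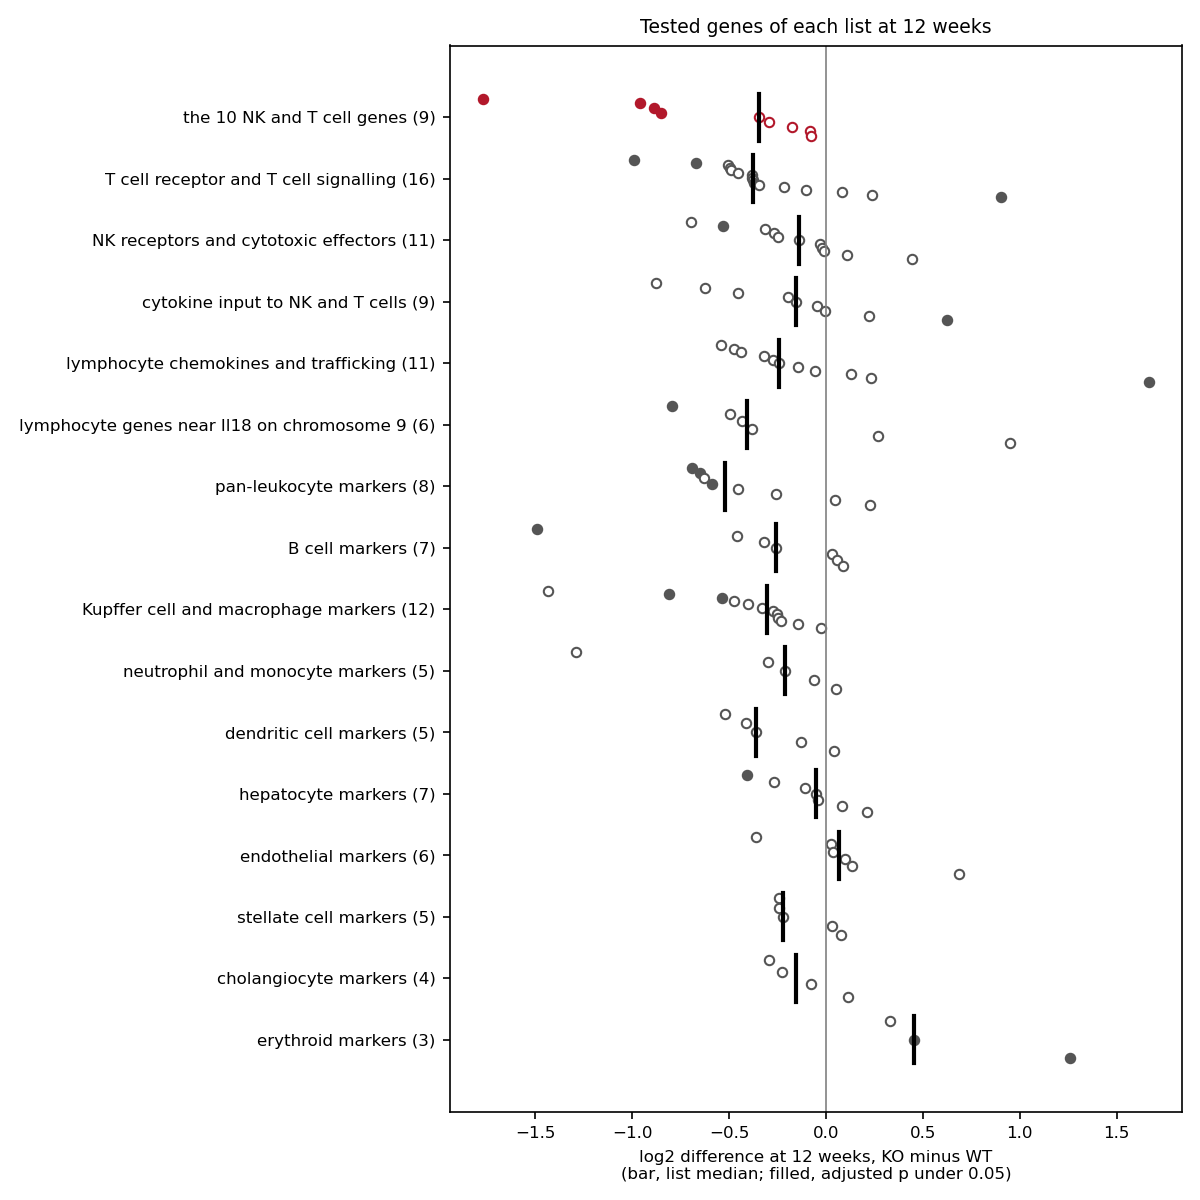
Log2 difference at 12 weeks, KO minus WT (horizontal axis), of every tested gene of each list, with the number tested in brackets, the list median as a bar and filled points at adjusted p under 0.05. The 9 tested NK and T cell genes lie below 0 with a median of -0.35; the 12 Kupffer cell and macrophage markers also all lie below 0, and 3 of 8 pan-leukocyte markers are filled below 0.

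Markers of other cells moved with these genes at 12 weeks, and their part in the results was not tested. Of 8 pan-leukocyte markers 3 were lower (Coro1a -0.59, Laptm5 -0.69 and Rac2 -0.65) and 0 higher, with a median of -0.52. Their summed signal, in units of the array's 75th percentile, ran from 13.7 to 18.3 in 12-week knockout livers and from 18.6 to 24.7 in 12-week wild type livers. Timd4 and Folr2 were the 2 genes called lower among 12 markers of Kupffer cells and macrophages, 12 of 12 were below 0, and the sums ran from 120 to 195 in knockout and from 178 to 234 in wild type livers. Of 7 tested B cell markers 1 was lower, Jchain, the joining chain of secreted antibodies (-1.49 ± 0.20). The neutrophil and monocyte (5 tested), dendritic cell (5), endothelial (6), stellate (5) and cholangiocyte (4) markers held no call at 12 weeks. Of 7 hepatocyte markers 1 was called, Apoa1 (-0.41), with a list median of -0.05. Of 3 erythroid markers 2 were higher, Klf1 and Slc4a1. At 6 weeks 0 of the 8 pan-leukocyte and 0 of the 12 Kupffer cell markers were called, with medians of 0.06 and 0.15, nor were any B cell or dendritic cell markers. Other lists did hold calls at that age, when slide and genotype coincide. Of 5 tested neutrophil and monocyte markers 3 were higher, among them S100a9 (0.90) and S100a8 (0.74). Of 7 hepatocyte markers 2 were higher, Tat (0.92) and Apoa1 (0.30). Of 3 erythroid markers 2 were higher, among them Alas2 (1.46), and 1 was lower, Klf1 (-0.91). The endothelial Kdr (-0.54) and the stellate Lrat (-0.50) were lower. Of the cholangiocyte markers Sox9 was higher (1.81) and Cftr lower (-0.99, with 1 of 3 knockout arrays well above background). The lowest and median pan-leukocyte sums were then 16.2 and 16.9 in knockout livers and 16.5 and 16.7 in wild type livers.

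Averaged over the 9 tested genes, each centred on its own mean, the arrays read -0.14, -0.48 and -0.26 in 12-week knockout, against 0.48, 0.13 and 0.31 in 12-week wild type, and -0.35, -0.11 and -0.05 in 6-week knockout, against 0.12, 0.23 and 0.12 in 6-week wild type. All knockout arrays lay below all wild type arrays on this average. The lowest was 12-week knockout replicate 2 and the highest 12-week wild type replicate 1. The average includes Cd3g, which was tested only through its wild type groups. It also includes Nkg7 and Prf1, in which the slide 1 arrays, all wild type, were the highest. How often averages of other genes separate in this way was not tested. Over the 12 arrays the 36 pairs of these genes correlated at r from -0.25 to 0.84, with a median of 0.48. The genes outside the 10 whose levels followed that average most closely over the 12 arrays were Nos2 (r = 0.94), H2-Q6 (0.91), Tcf7 (0.91), Cryab (0.90) and Spn (0.90). Those most like Cd3g alone were Cadm1 (0.95), Cryab (0.95), Rab34 (0.94), Col5a3 (0.94) and Igfbp2 (0.93), of which Cadm1, Cryab and Col5a3 are also on chromosome 9. These are descriptions over arrays that share group and slide.

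**Figure D4:**
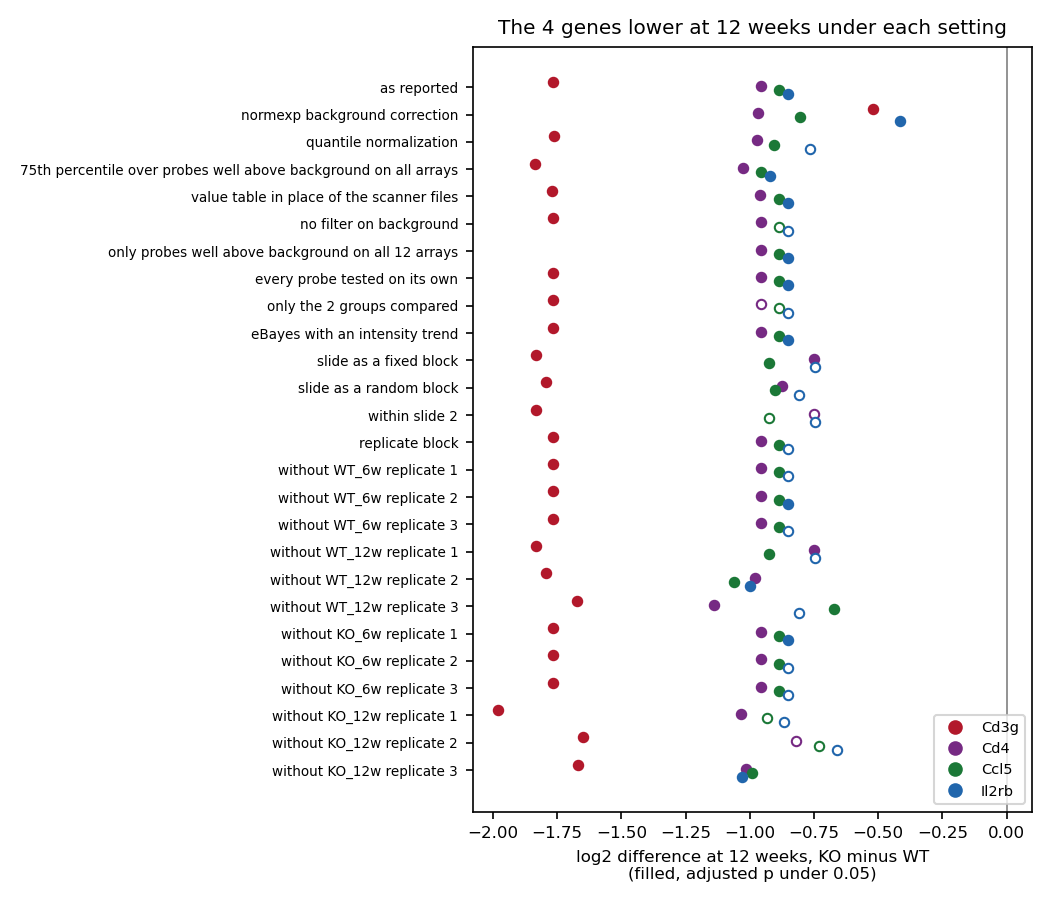
Log2 difference at 12 weeks, KO minus WT (horizontal axis), of the 4 genes called lower, as reported and under each alternative setting (rows), filled at adjusted p under 0.05. Cd3g is filled in every row in which it was tested, from -1.98 to -0.52, while Il2rb is filled in 10 of its 25 alternatives; Cd3g has no point where probes had to be well above background on all 12 arrays.

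Of these 4 calls at 12 weeks, Cd3g passed under all 24 alternatives in which it was tested, Cd4 under 22 of 25, Ccl5 under 20 of 25 and Il2rb under 10 of 25. All 4 stayed below 0 in each of them. Without 12-week knockout replicate 2, which had the lowest level for each of the 4, only Cd3g was called. Within slide 2, with 3 knockout and 2 wild type arrays, Cd3g was again the 1 gene called, at -1.83 (adjusted p = 0.0185).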

How the data were processed

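RNA of 12 whole livers was measured on 1-colour Agilent mouse arrays, labelled with cyanine 3 from an oligo-dT primer per the labels' protocols. Per the file headers and the submitters' processing notes, the authors deposited the output of Agilent Feature Extraction 10.7.3.1: a processed intensity, background-subtracted and detrended, in which a surrogate stands for low values, with no scaling between arrays. Mean spot and local background intensities, also deposited by the authors, served the normexp alternative. The deposited value table holds the same processed intensity rounded (largest difference 0.497%), on a linear scale, uncentred and with no ratio. Its column medians ran from 21.6 to 29.5.

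Control and outlier spots were left out, spots of a probe averaged on the log2 scale, and the array's 75th percentile subtracted. Of 55681 probes 29804 (53.5%) were well above background on all 3 arrays of a group and were tested. The brightest probe represented each of the 5433 genes with several, giving 22128 genes. The means of the 4 groups were fitted with lmFit and eBayes (limma 3.58.1, R 4.3.3) on 12 arrays, with 8 residual and 2.23 prior degrees of freedom and 6 missing values, then Benjamini-Hochberg adjustment and a threshold of 0.05. Probe positions are mm9, from the files. The fit was tested on simulated data. The number of arrays limits the precision. RefSeq tables gave current gene symbols and the promoters. Alternatives changed the background correction, normalization, filter, probe choice, samples fitted, slide and replicate blocks, and arrays left out.

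Genes named beside the 10 follow this rule: per list and comparison, up to 4 genes past the threshold with the smallest adjusted p for lymphocyte lists, up to 2 for other cell types in the genotype comparisons, and the 5 genes most correlated over arrays. The 10 genes and all lists were chosen with earlier results of these data known.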

Additional observations from a re-analysis of the deposited data

Results flagged for a closer look

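The change of the Cd3g genotype difference with age was called, which drew attention to it: the 12-week difference minus the 6-week one was -1.11 ± 0.26 on the log2 scale (adjusted p = 0.0242, limma). Cd3g was well above background on 1 of 3 knockout arrays at 12 weeks and 2 of 3 at 6 weeks, so the size of this change is uncertain. The knockout lay below wild type in every array at both ages. The call was lost with slide as a fixed block (-0.98, adjusted p = 0.108), with quantile normalization, with no filter on background, with the replicate block and when replicate 1 or 3 of 6-week wild type, replicate 2 or 3 of 6-week knockout or replicate 2 or 3 of 12-week knockout was left out. Over the 22 alternatives the value ran from -1.32 to -0.40 and the adjusted p from 0.00686 to 0.108.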

How the results depend on the processing

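Of the 9 tested genes, 4 were called at 12 weeks. Their number was 2 with no filter on background, 1 with only the 2 groups compared and 1 within slide 2, and 1 to 4 when 1 array was left out (1 without 12-week knockout replicate 2, 2 without replicate 1). At 6 weeks, against 1 as reported, it was 3 with the 75th percentile taken over probes well above background on all arrays, 3 with only the 2 groups compared, 2 with every probe tested on its own, 0 with no filter, 0 with probes well above background on all 12 arrays, 0 with slide as a fixed or a random block, and 0 to 3 with 1 array left out (0 without any 1 of the 6-week wild type arrays or without 6-week knockout replicate 1 or 3, 3 without 12-week wild type replicate 1, and 2 without its replicate 2 or 3 or 12-week knockout replicate 2). With normexp, quantile normalization or an intensity trend the 1 gene was Nkg7, not Cd3g. For 12 against 6 weeks in the knockout it was 0 throughout, except 1 without 12-week knockout replicate 1. In wild type, against 1, it was 2 with normexp, with that 75th percentile and with the value table, 0 with no filter, with only the 2 groups compared, with slide as a fixed or a random block and within slide 1, and 0 to 3 with 1 array left out (0 without any 1 of the 6-week wild type arrays, 12-week wild type replicate 3, 6-week knockout replicate 2 or 3 or 12-week knockout replicate 3, and 3 without 12-week wild type replicate 1). For the change of the genotype difference with age, against 1, it was 0 with quantile normalization, with no filter, with probes well above background on all 12 arrays and with slide as a fixed block, and 0 to 1 with 1 array left out. No filter tests more genes and the strict filter does not test Cd3g; the cause of the other changes was not tested. No call changed its sign.

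The replicate numbers did not pair the samples: deviations of same-numbered arrays correlated at -0.065 to 0.18. With the replicate block 3 genes were called at 12 weeks, without Il2rb, 0 at 6 weeks and 0 for the change with age. Cd3g and the base 1242 probe of Cd4 lie near background, where normexp with its offset of 50 shrank Cd3g at 12 weeks to -0.52, still called (adjusted p = 0.00276).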
